A study of Arabidopsis with 27 samples.

Results

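The comparison described here is that of eATP with mock in the double mutant glr3.3glr3.6, read in leaves that were not treated themselves. It rests on 6 of the 27 libraries of the series, chosen by their labels: 3 from glr3.3glr3.6 plants given eATP and 3 from glr3.3glr3.6 plants given mock buffer. According to the labels, eATP was 300 µM βγmeATP, an analogue of ATP, placed on a local leaf of an Arabidopsis thaliana rosette grown for 4 weeks. A systemic leaf of the same rosette was frozen 30 min later, and each library came from a pool of 8 plants. The mock was the buffer with neither eATP nor L-Glu. For comparison serve glr3.3glr3.6 given 100 mM L-Glu, and the double mutant p2k1p2k2 and wild-type Col-0 given eATP or mock. Each group has 3 libraries. The remaining libraries, p2k1p2k2 and Col-0 given L-Glu, entered only the filter and the fit across all 27 libraries. Libraries are named by treatment and replicate number (eATP 1, mock 1), and belong to glr3.3glr3.6 unless another genotype is given.

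ATP that leaks from damaged cells acts outside the plasma membrane as a danger signal. In Arabidopsis it is bound by the lectin receptor kinases P2K1 and P2K2, after which cytosolic calcium and reactive oxygen species rise. GLR3.3 and GLR3.6 are glutamate receptor-like cation channels of the vasculature, known for carrying wound-triggered electrical and calcium signals from a damaged leaf to distant leaves. Jasmonate is the hormone classically made in distant leaves after wounding, and its own synthesis enzymes, JAZ repressors and breakdown enzymes are among its early target genes. Salicylate is the hormone of resistance to biotrophic pathogens and of systemic acquired resistance.

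The targeted genes come first, 4 in all. GLR3.6 (AT3G51480) stood at 88.1, 70.5 and 122 FPKM in eATP 1 to 3 and at 106, 73.3 and 77.7 FPKM in mock 1 to 3. FPKM are mapped fragments scaled to the length of a transcript and to the size of the library. In Col-0 the same gene averaged 0.928 FPKM after eATP and 0.987 FPKM after mock, so its transcript level was higher in the line named for its loss. GLR3.3 (AT1G42540) stood at 7.26, 6.25 and 7.20 FPKM in eATP and at 7.11, 6.56 and 5.85 FPKM in mock, against Col-0 averages of 3.595 FPKM after eATP and 3.90 FPKM after mock. A value per gene cannot tell which stretch of the transcript gave the reads, so the table leaves unknown whether the channels are missing. The libraries are therefore called those labelled glr3.3glr3.6. P2K1 ranged from 1.27 to 1.82 FPKM in eATP and from 1.36 to 2.04 FPKM in mock. P2K2 ranged from 0.308 to 0.552 FPKM in eATP and from 0.430 to 0.673 FPKM in mock. None of the 4 genes was called between eATP and mock.

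FPKM are already scaled to the size of each library, so their sums do not show how many fragments a library held. Summed FPKM ran from 745207 to 780934, 21126 to 21574 genes were above 0, and the correlation across genes within a group was 0.953 to 0.974. Depth relative to eATP 1, estimated from the steps between low FPKM values, ran from 0.783 to 0.857 in the other two eATP libraries and from 0.785 to 0.953 in mock. The labelled tissue was checked against markers of other organs. All 5 root markers and all 6 flower markers stayed under 1 FPKM in all 6 libraries, with RHD6, AP1, AP3, LFY and A9 at 0. The meristem gene STM and the late-senescence gene SAG12 were also at 0. Summed markers of guard cells (1338 to 1823 FPKM in eATP, 1149 to 1886 in mock), of vasculature (181 to 228 in eATP, 207 to 242 in mock) and of senescence (543 to 686 in eATP, 474 to 831 in mock) overlapped between the groups. The summed epidermis and cuticle markers did not, at 581 to 657 FPKM in eATP and 694 to 775 FPKM in mock. In whole leaves, fewer cells of a type and less RNA per cell cannot be told apart.

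The labels do not say what libraries of the same replicate number share. They were compared with each other in the fit, as a block, and list values within each number are given beside the joint ones, since salicylate genes differed by number.

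After eATP, 7 genes rose and 1 fell in the systemic leaf (limma with the replicate number as a block, adjusted p under 0.05). These 8 are 0.0483% of the 16577 genes tested, 0.0422% for the rise and 0.00603% for the fall. They include a chitinase, a peptidase of glucosinolate and camalexin synthesis, a gibberellin-inactivating enzyme and a NAC transcription factor. Without the block, limma called 0 genes, with 561 (3.38%) at an unadjusted p under 0.05, against 1780 (10.7%) with the block. All 8 calls thus rest on pairing libraries by number, which deviated together clearly for numbers 1 and 2 and hardly for number 3. With the block kept, 0 genes were called from the 9 glr3.3glr3.6 libraries alone or from the 6 libraries compared alone. The calls thus also rest on the spread estimated with the libraries of the other genotypes. Without the block, 5 of the 8 genes had an unadjusted p under 0.05. All 8 calls were also lost without eATP 2, without mock 2, without number 2 in every group or without number 1 in every group. Without eATP 3 there were 232 calls, the 8 among them, and there were 54 without mock 3 (6 of the 8 among them), 115 without number 3 (4 of the 8 among them) and 2 without eATP 1 (1 of the 8). The 3 genes called without number 1 were none of the 8.

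The groups did not overlap for 5 of the 8 called genes, against 6.78% of all genes tested (4.43% higher and 2.35% lower in eATP). The 8 were called on these same libraries, so a higher share among them follows from the choice and is no further support.

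A pair of the genes that rose encode enzymes of defence. EP3 (AT3G54420), a class IV chitinase, had 4.89, 2.33 and 4.77 FPKM in eATP and 2.17, 0.731 and 1.99 FPKM in mock. The groups did not overlap, and the log2 difference was 0.93 ± 0.13 (SE; 1.91-fold, limma adjusted p = 0.0158). GGP1 (AT4G30530), the gamma-glutamyl peptidase that trims glutathione conjugates on the way to glucosinolates and camalexin, had 531, 256 and 264 FPKM in eATP and 299.5, 197 and 179.5 FPKM in mock. It was higher in eATP within each number, while mock 1 lay above eATP 2 and eATP 3. Its log2 difference was 0.58 ± 0.09 (limma adjusted p = 0.0236).

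GA2OX6 (AT1G02400) removes active gibberellins by oxidation. It had 82.1, 65.8 and 92.5 FPKM in eATP and 63.9, 44.1 and 49.2 FPKM in mock, with no overlap, and rose by 0.61 ± 0.10 on the log2 scale (1.52-fold, limma adjusted p = 0.0380). ATAF2 (AT5G08790), a NAC transcription factor known from wounding and defence, had 434, 283 and 311 FPKM in eATP and 307, 225 and 227 FPKM in mock. Mock 1 lay above eATP 2, so the groups overlapped, and the rise within numbers was 0.43 ± 0.07 (1.34-fold, limma adjusted p = 0.0488).

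The other four called genes carry only a locus name in the reference gene table. AT3G02840 had the smallest adjusted p of all genes, with 35.4, 19.1 and 19.4 FPKM in eATP and 18.9, 6.62 and 8.23 FPKM in mock. It rose by 1.14 ± 0.14 (2.202-fold, limma adjusted p = 0.00758), and the lowest eATP library lay just above the highest mock library. AT1G58420 had 17.58, 8.47 and 8.98 FPKM in eATP and 5.93, 4.01 and 5.14 FPKM in mock, a rise of 1.01 ± 0.15 without overlap (2.02-fold, limma adjusted p = 0.0236). AT2G18690 had 237, 121 and 94.97 FPKM in eATP and 97.7, 55.1 and 64.5 FPKM in mock, a rise of 0.98 ± 0.16 in which eATP 3 lay just under mock 1 (1.97-fold, limma adjusted p = 0.0380). AT3G05935 was the gene that fell. It had 4.80, 7.17 and 7.27 FPKM in eATP and 10.5, 12.2 and 13.9 FPKM in mock, a difference of -0.84 ± 0.13 without overlap (limma adjusted p = 0.0236).

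Of the 8 called genes, 4 overlap another gene in the reference table. Whether counting used strand is not stated, so reads of overlapping genes cannot be told apart. EP3 overlaps AT3G54440, which averaged 16.0 FPKM in eATP and 15.9 FPKM in mock, and SRS6, at 1.14 FPKM in eATP and 0.80 FPKM in mock (log2 difference 0.21). AT3G05935 overlaps the long non-coding RNA AT3G05932, at 2.68 FPKM in eATP and 2.75 FPKM in mock, and GLP8, at 0.236 FPKM in eATP and 0.123 FPKM in mock. ATAF2 overlaps AT5G08780, at 3.64 FPKM in eATP and 3.53 FPKM in mock. AT3G02840 overlaps SKOR, at 0.151 FPKM in eATP and 0.120 FPKM in mock. SKOR and GLP8 were under the minimum mean, and none of the neighbours tested was called.

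**Figure D1:**
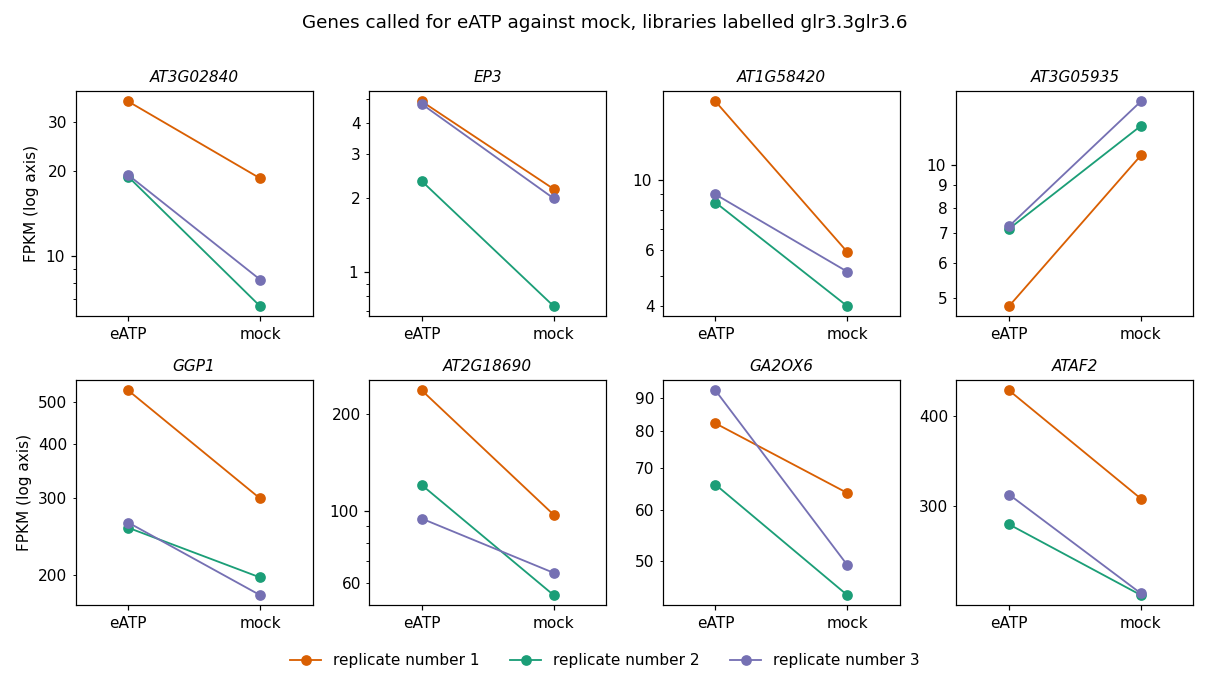
FPKM (log axis) of the 8 called genes in the 3 eATP and 3 mock libraries labelled glr3.3glr3.6, with a line joining libraries of the same replicate number. Every line of 7 genes runs higher in eATP than in mock and every line of AT3G05935 runs lower, while GGP1, AT2G18690 and ATAF2 have groups that overlap.

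Wider differences than those of the called genes were found among genes that did not pass. Among those averaging 5 FPKM or more, with groups without overlap and with 3 paired differences of the same sign, 518 uncalled genes were higher and 268 lower in eATP. Over all 16577 genes tested, without the limit of 5 FPKM, 734 (4.43%) were higher and 390 (2.35%) lower in eATP without overlap. Groups of 3 libraries each can separate in either direction without an effect of eATP, so a lack of overlap is by itself no sign of one. How many would separate so was not tested. PAD3, which makes the last step of camalexin synthesis, had 39.7, 12.1 and 2.82 FPKM in eATP and 2.71, 0.405 and 1.70 FPKM in mock. Its log2 difference was 2.39 ± 0.58, carried by numbers 1 and 2 (limma adjusted p = 0.114). GSTU4, a glutathione transferase, had 25.5, 8.16 and 6.53 FPKM in eATP and 6.06, 1.05 and 3.11 FPKM in mock (1.65, limma adjusted p = 0.130).

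A pair of uncalled genes lay closer to the threshold. CML40, a calmodulin-like protein, had 33.5, 29.0 and 11.3 FPKM in eATP and 9.91, 7.43 and 7.08 FPKM in mock, a difference of 1.37 ± 0.27 (limma adjusted p = 0.0626). GAD4, a glutamate decarboxylase that turns glutamate into GABA, had 13.3, 11.7 and 7.92 FPKM in eATP and 6.47, 2.51 and 2.87 FPKM in mock, a difference of 1.33 ± 0.25 (limma adjusted p = 0.0626). Both genes were picked for groups without overlap, so the separation of their eATP and mock libraries follows from the choice and is no further support. The other uncalled genes among the 8 highest were AT3G16670 (2.05), AT1G13470 (1.65), AT2G04495 (1.48) and AT3G28580 (1.189).

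The lowest uncalled gene was AT1G74385, with 3.16, 0.00109 and 4.48 FPKM in eATP and 8.17, 20.4 and 20.8 FPKM in mock (-2.52 ± 1.44, limma adjusted p = 0.58). It overlaps XXT5, and 7 of the 16 uncalled genes named by this rule overlap another gene. The long non-coding RNAs AT1G09253 (-1.29) and AT2G08635 (-0.99) followed, and both also overlap another gene. AT5G44680 had 19.5, 24.5 and 21.1 FPKM in eATP and 32.1, 48.7 and 40.7 FPKM in mock, a difference of -0.86 ± 0.16 (limma adjusted p = 0.0626). The other four were AT5G05250 (-0.97), AT2G20835 (-0.79), AT1G62510 (-0.69) and AT5G07580 (-0.68).

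Pathways were read through 37 lists with 457 members, of which 390 were tested. GA2OX6 was the only list member called. For the rest, the lists are described by the number of tested members at an unadjusted p under 0.05 and by their median log2 difference. Over all genes tested, 7.29% were higher and 3.44% lower at that p, 53.8% were higher at any p, the median log2 difference was 0.01 and the middle 90% of genes lay between -0.26 and 0.43. The medians within numbers 1, 2 and 3 over all genes were 0.01, 0.07 and -0.03. All list counts at an unadjusted p under 0.05 come from the fit with the block. Without it, 1 of 13 jasmonate synthesis, 0 of 11 JAZ and 0 of 6 jasmonate catabolism members were higher at that p. For salicylate synthesis they were 4 of 14, for systemic acquired resistance 1 of 8 and for indole glucosinolates 1 of 11. WRKY factors had 2 of 16 and reactive oxygen genes 2 of 15. Over all genes, 386 were higher and 175 lower.

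**Figure D2:**
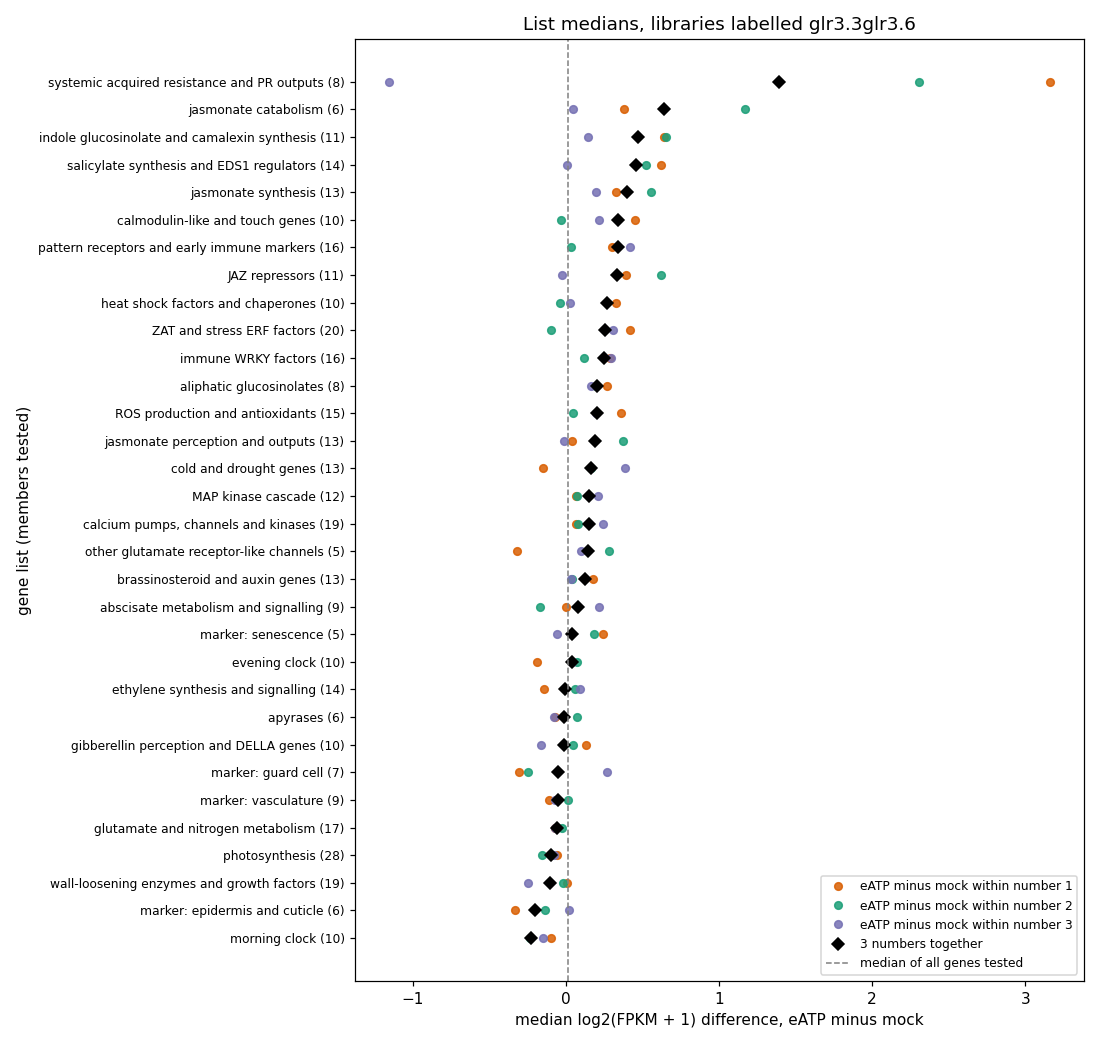
Median log2 difference, eATP minus mock in libraries labelled glr3.3glr3.6, of the 32 lists with at least 5 tested members, within number 1, 2 and 3 (coloured points) and jointly (black diamonds). The dashed line marks all genes tested. Defence lists lie to its right and photosynthesis, morning clock and epidermis lists to its left, and the systemic acquired resistance list has number 3 on the other side of 0 (-1.16) from numbers 1 (3.16) and 2 (2.31).

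Jasmonate genes stood higher in eATP at nearly every step, but 0 of them were called. Of the synthesis enzymes, 12 of 13 stood higher, 6 of them at an unadjusted p under 0.05, with a median of 0.40 and medians of 0.33, 0.55 and 0.19 within numbers 1, 2 and 3. LOX3, the lipoxygenase that starts stress-induced synthesis, had 42.3, 35.5 and 22.2 FPKM in eATP and 21.7, 12.2 and 16.5 FPKM in mock. All 3 eATP libraries lay above all 3 mock libraries, and the difference was 0.93 ± 0.20 (limma adjusted p = 0.0799). LOX4 had 132, 84.9 and 63.4 FPKM in eATP and 90.6, 46.9 and 38.7 FPKM in mock (0.69). AOC3, an allene oxide cyclase, had 67.4, 77.1 and 72.2 FPKM in eATP and 71.1, 33.5 and 38.7 FPKM in mock (0.66), with eATP 1 under mock 1. OPR3, the peroxisomal reductase of the pathway, had 189, 145 and 98.5 FPKM in eATP and 121, 68.5 and 86.0 FPKM in mock (0.64). AOC3 and OPR3 differed most within number 2. Leaving out single libraries or numbers gave list medians from 0.26 (without mock 2) to 0.56 (without mock 1).

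The JAZ repressors, which jasmonate induces and which then dampen its own signal, stood higher in 11 of 11 tested members, 3 of them at an unadjusted p under 0.05. Their median was 0.34, with 0.39, 0.62 and -0.03 within numbers 1, 2 and 3. JAZ1 had 329, 209 and 181 FPKM in eATP and 250.1, 138 and 117 FPKM in mock (0.54 ± 0.15, limma adjusted p = 0.182). JAZ5 had 46.0, 24.9 and 16.4 FPKM in eATP and 28.5, 11.7 and 15.6 FPKM in mock (0.59). JAZ10 differed by 0.54 and JAZ12 by 0.15. JAZ7 and JAZ8, chosen after their values were seen, were lower in eATP 3 (3.71 and 3.63 FPKM) than in mock 3 (6.96 and 6.73 FPKM). The list's median was 0.14 without eATP 1 and 0.55 without eATP 3.

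Enzymes that break jasmonate down stood higher in 6 of 6 tested members, with a median of 0.64 and 0.38, 1.17 and 0.04 within numbers. CYP94C1, which oxidizes the active conjugate, had 38.5, 45.6 and 22.4 FPKM in eATP and 32.6, 13.5 and 20.3 FPKM in mock (0.68). IAR3, an amidohydrolase, had 76.5, 39.5 and 36.6 FPKM in eATP and 47.6, 20.5 and 31.3 FPKM in mock (0.60). CYP94B3 stood at 1.38 and JOX2 at 0.50 on the log2 scale. The median was 0.20 without number 2 and 0.82 without mock 1.

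Jasmonate perception and outputs were less even, with 11 of 13 members higher and 5 at an unadjusted p under 0.05. Their median was 0.19, with 0.04, 0.38 and -0.01 within numbers 1, 2 and 3. ORA59, a factor of the jasmonate and ethylene branch, had 11.6, 7.34 and 7.17 FPKM in eATP and 3.45, 3.95 and 5.37 FPKM in mock (0.87). Its partner ERF1 had 3.82, 2.00 and 1.16 FPKM in eATP and 0.868, 0.834 and 0.727 FPKM in mock (0.80). Neither gene's groups overlapped. TAT3, a tyrosine aminotransferase, had 31.0, 13.0 and 1.18 FPKM in eATP and 1.08, 0.763 and 3.11 FPKM in mock (2.01 ± 0.68), so number 3 ran the other way. MYC2, the main transcription factor of the wound branch, differed by 0.35. The receptor gene COI1, chosen after its value was seen, stood at -0.11.

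Salicylate genes showed the widest split by number. Of 14 regulators and enzymes of salicylate synthesis, 11 stood higher and 9 had an unadjusted p under 0.05 (median 0.46, with 0.62, 0.52 and 0.01 within numbers 1, 2 and 3, and 0.28 without number 1). ICS1, the isochorismate synthase that supplies most pathogen-induced salicylate, was named after its values were seen. It had 58.2, 32.7 and 13.0 FPKM in eATP and 9.44, 10.3 and 23.7 FPKM in mock (1.09 ± 0.40, limma adjusted p = 0.322). PBS3, the next enzyme, had 22.6, 10.4 and 2.17 FPKM in eATP and 0.640, 0.864 and 5.93 FPKM in mock (1.78). In both genes eATP lay above mock in numbers 1 and 2 and below it in number 3.

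Of the 14 tested members of the salicylate synthesis list, 5 were higher in eATP within every number and 0 were lower within every number. Over all genes tested, 15.5% were higher within every number. EDS5, which exports isochorismate from the chloroplast, had 23.2, 17.61 and 11.1 FPKM in eATP and 11.2, 8.95 and 10.0 FPKM in mock (0.68 ± 0.17, limma adjusted p = 0.117). EDS1, a hub of receptor-triggered immunity, had 78.3, 58.5 and 42.2 FPKM in eATP and 41.2, 38.3 and 40.1 FPKM in mock (0.53). CBP60G, a transcription factor of ICS1, had 123, 101 and 82.5 FPKM in eATP and 80.4, 82.4 and 66.8 FPKM in mock (0.40). EDS5, EDS1 and CBP60G were higher in eATP within every number.

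The outputs of systemic acquired resistance stood higher in 8 of 8 tested members of the 11 listed, 6 of them at an unadjusted p under 0.05, with the highest median of the lists at 1.39. Within number 3 the median was -1.16, against 3.16 within number 1 and 2.31 within number 2. Without the libraries of number 3 the joint median was 2.74, and without those of number 1 it was 0.65. PR1, the antimicrobial marker of salicylate action, had 140.0, 54.3 and 0.245 FPKM in eATP and 5.31, 0.404 and 7.62 FPKM in mock. PR2, a glucanase, had 403, 137 and 5.64 FPKM in eATP and 6.43, 1.28 and 101 FPKM in mock. Both were named after their values were seen. PR5 had 365, 152 and 45.2 FPKM in eATP and 43.8, 33.0 and 105 FPKM in mock (1.33), and AED1, a protease of systemic immunity, had 84.1, 47.4 and 17.1 FPKM in eATP and 7.67, 6.57 and 38.1 FPKM in mock (1.62).

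In each of these 4 outputs, eATP 1, eATP 2 and mock 3 were the 3 highest libraries. GRX480 and SARD4 did not follow that split. GRX480, a glutaredoxin that joins salicylate to jasmonate signalling, had 40.0, 11.8 and 7.42 FPKM in eATP and 14.7, 2.14 and 4.92 FPKM in mock, higher in each number (1.31 ± 0.26, limma adjusted p = 0.0626). SARD4, of the pipecolate pathway, had 28.5, 15.3 and 15.3 FPKM in eATP and 12.1, 9.45 and 11.8 FPKM in mock (0.72), without overlap. DMR6 (0.82) and DLO1 (1.45), which break salicylate down, were the other tested members, and neither was higher in eATP within every number. Another 3 were under the minimum mean and were not tested. Of these, ALD1 had 6.12, 2.94 and 0.0815 FPKM in eATP and at most 0.296 FPKM in mock, and FMO1 had 4.78, 1.57 and 0 FPKM in eATP and at most 0.0883 FPKM in mock.

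**Figure D3:**
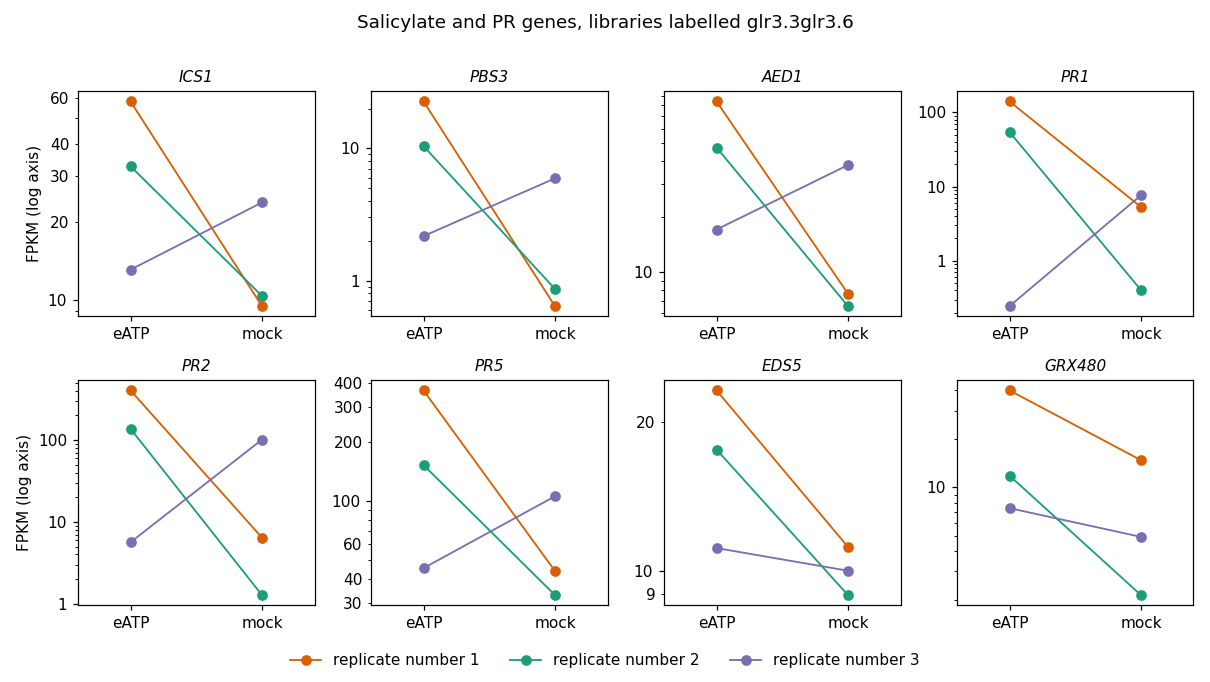
FPKM (log axis) of 8 salicylate genes in the eATP and mock libraries labelled glr3.3glr3.6, with a line joining each replicate number. Lines of number 3 run lower in eATP for ICS1, PBS3, AED1, PR1, PR2 and PR5 and higher for EDS5 and GRX480, while lines of numbers 1 and 2 run higher in eATP for all 8.

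Indole glucosinolate and camalexin genes, which feed chemical defence from tryptophan, stood higher in 11 of 11 tested members. At an unadjusted p under 0.05 were 8 of them, the median was 0.47 and the medians within numbers were 0.64, 0.65 and 0.15. CYP83B1, which commits aldoximes to indole glucosinolates, had 344, 188 and 129 FPKM in eATP and 124, 86.6 and 116 FPKM in mock, with no overlap (0.91 ± 0.23, limma adjusted p = 0.130). ASA1, of tryptophan synthesis, had 121, 75.7 and 82.1 FPKM in eATP and 77.1, 59.0 and 61.5 FPKM in mock (0.47). SUR1, the lyase shared by all glucosinolates, had 36.6, 25.9 and 24.6 FPKM in eATP and 23.9, 16.1 and 22.7 FPKM in mock (0.45). PAD3, described above, belongs to this list. Aliphatic glucosinolate genes, made from methionine, had a median of 0.21, with 7 of 8 higher, and BCAT4 (0.39), CYP79F1 (0.42) and MAM1 (0.37) at an unadjusted p under 0.05.

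Calcium and touch genes were higher in 8 of 10 tested members, with 6 at an unadjusted p under 0.05 and a median of 0.34. Within numbers 1, 2 and 3 the medians were 0.45, -0.03 and 0.22, so number 2 showed no rise. CML37, a calmodulin-like protein of wound responses, had 31.1, 16.0 and 10.3 FPKM in eATP and 13.4, 6.63 and 8.44 FPKM in mock (0.86 ± 0.20, limma adjusted p = 0.096). CML41, which acts at plasmodesmata, had 77.5, 18.15 and 15.6 FPKM in eATP and 4.18, 2.597 and 41.5 FPKM in mock (1.66), with the same 3 libraries highest as in PR1. Leaving out libraries of number 1, 2 or 3 gave list medians of 0.26, 0.55 and 0.22. Among pumps, channels and calcium-dependent kinases, 15 of 19 were higher (median 0.15). The annexin ANNAT1 had 74.6, 67.6 and 84.5 FPKM in eATP and 57.4, 50.5 and 71.3 FPKM in mock (0.34), and the pump ACA13 had 2.97, 6.81 and 3.395 FPKM in eATP and 2.63, 2.81 and 2.51 FPKM in mock (0.50).

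Genes of reactive oxygen species were higher in 14 of 15 tested members, 3 at an unadjusted p under 0.05 (median 0.20). OXI1, a kinase activated by hydrogen peroxide, had 14.3, 8.76 and 9.15 FPKM in eATP and 12.02, 4.96 and 3.23 FPKM in mock (0.74, limma adjusted p = 0.112). The cytosolic peroxidase APX1 had 387, 401 and 431 FPKM in eATP and 286, 294 and 369 FPKM in mock, without overlap (0.37). The catalase CAT3 had 1034, 714 and 715 FPKM in eATP and 451, 482 and 847 FPKM in mock (0.51), higher in eATP in numbers 1 and 2 alone. RBOHD, the oxidase of the apoplastic burst, chosen after its value was seen, stood at 0.30 ± 0.22.

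Pattern receptors and early immune markers were higher in 14 of 16 tested members, with 6 at an unadjusted p under 0.05 and a median of 0.34. PROPEP3, the precursor of a wound peptide, had 2.81, 4.54 and 3.66 FPKM in eATP and 1.16, 0.480 and 0.357 FPKM in mock, without overlap (2.83-fold). LYK5, a chitin receptor, had 19.2, 10.2 and 13.8 FPKM in eATP and 11.6, 7.04 and 9.54 FPKM in mock (0.55). NHL10 stood at 1.51 and PER4 at 0.71. The flagellin receptor FLS2, named after its value was seen, stood at -0.18.

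Transcription factors and kinases of immunity followed. Of the WRKY factors, 14 of 16 stood higher and 7 had an unadjusted p under 0.05 (median 0.25). WRKY48 had 9.24, 6.68 and 6.71 FPKM in eATP and 6.53, 2.83 and 2.84 FPKM in mock (0.82). WRKY53 had 101, 56.0 and 54.5 FPKM in eATP and 55.6, 36.6 and 47.7 FPKM in mock (0.55). WRKY30 differed by 1.16 and WRKY46 by 0.52, both without overlap. In the MAP kinase list 10 of 12 stood higher (median 0.15), with MPK11 at 0.68, the phosphatase AP2C1 at 0.43, MPK3 at 0.30 and MKK4 at 0.29.

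The zinc finger and ERF factors split. Of 20 members, 16 stood higher, 7 of them at an unadjusted p under 0.05, and 1 of the 4 lower members passed that p (median 0.26, with 0.42, -0.09 and 0.31 within numbers). ERF4, a repressor, had 205, 136 and 136 FPKM in eATP and 125, 121 and 109.8 FPKM in mock (0.39 ± 0.10, limma adjusted p = 0.144). RRTF1, a factor of redox signalling, had 33.1, 7.13 and 5.58 FPKM in eATP and 15.0, 1.43 and 1.90 FPKM in mock (1.34). ERF104, released by the flagellin-activated kinase MPK6, ran the other way at 108, 113 and 120 FPKM in eATP and 169.7, 198 and 147 FPKM in mock (-0.58 ± 0.16, limma adjusted p = 0.152).

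Genes of photosynthesis stood mostly lower, by little, while lists of growth genes were mixed. Photosynthesis genes were lower in 26 of 28 members, 6 at an unadjusted p under 0.05, with a median of -0.10 and -0.05, -0.16 and -0.08 within numbers. LHCA4, an antenna protein of photosystem I, had 7022, 7113 and 7148 FPKM in eATP and 7534, 8339 and 7763 FPKM in mock, without overlap (-0.15 ± 0.05). After quantile normalization the list's median was -0.02. The near-identical members of the RBCS and LHCB1 families share reads, so their single values are uncertain. Of the brassinosteroid and auxin genes, 9 of 13 stood higher (median 0.12). CPD, of brassinosteroid synthesis, had 68.1, 71.4 and 74.4 FPKM in eATP and 72.6, 105 and 126 FPKM in mock (-0.46 ± 0.13), and IAA19 stood at 0.39. Wall-loosening enzymes had 10 of 19 lower (median -0.10), with XTH4 at -0.18 and XTH19 at 0.61.

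The morning clock genes stood lower in 8 of 10 members, 1 at an unadjusted p under 0.05 (median -0.22). CCA1, the dawn repressor, had 14.4, 6.69 and 14.6 FPKM in eATP and 16.8, 12.2 and 14.7 FPKM in mock (-0.33). PRR9 (-0.32), LNK2 (-0.23) and RVE4 (-0.20) lay alike. Evening clock genes had a median of 0.04, with FKF1 at 0.46 and LUX at -0.32. Epidermis markers were lower in 5 of 6 tested members (median -0.20), with CER6, of wax synthesis, at -0.19, ATML1 at -0.26 and PDF2 at -0.22, and their median was -0.33, -0.14 and 0.02 within numbers. Their part in the results above was not tested.

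Other hormones and stresses gave smaller or mixed values. Besides GA2OX6, only GA2OX2 of the 12 gibberellin metabolism genes was tested (0.22). Of the gibberellin perception and DELLA genes, 5 of 10 stood higher (median -0.01). The DELLA repressor genes RGL3 (0.63) and RGA (-0.21) ran apart, with GID1B, a receptor, at 0.33. Ethylene genes had a median of -0.01, abscisate genes 0.08 and apyrases, which degrade ATP, -0.01. In nitrogen metabolism 11 of 17 stood lower (median -0.06). GLN1.1, a cytosolic glutamine synthetase, had 145, 68.5 and 79.3 FPKM in eATP and 60.8, 39.5 and 58.3 FPKM in mock, without overlap (0.82 ± 0.23). GLN1.3 stood at 0.37 and ASN2 at -0.44.

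Of the cold and drought genes, 8 of 13 stood higher (median 0.16, but -0.05 without eATP 3). The dehydrin LTI30 had 15.6, 18.03 and 34.4 FPKM in eATP and 6.38, 9.23 and 15.5 FPKM in mock, higher in each number (1.06 ± 0.24, limma adjusted p = 0.0877). DREB2A stood at 0.67, CBF2 at 0.77 and RD22 at -0.20. Heat genes had a median of 0.27, with 0.33, -0.04 and 0.03 within numbers 1, 2 and 3. HSFB1 stood at 0.64 and the ER chaperone BIP3 at 1.57, both lower in eATP within number 3. BIP3 had 12.5, 2.88 and 0.293 FPKM in eATP and 0.175, 0.0479 and 1.09 FPKM in mock. Other glutamate receptor-like channels had GLR2.8 at 0.68, from 3.72, 1.76 and 0.688 FPKM in eATP and 1.37, 0.193 and 0.892 FPKM in mock, and GLR2.7 at 0.43.

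The eATP response of glr3.3glr3.6 was then set against that of p2k1p2k2, a line named for the ATP receptors, with which it shares no library. The difference of the responses was called for 16 genes (0.0965% of those tested), 11 higher (0.0664%) and 5 lower (0.0302%) in glr3.3glr3.6, by limma with the block. Without the block 0 genes were called and 575 (3.47%) had an unadjusted p under 0.05. Within p2k1p2k2 itself, 0 genes were called for eATP, with 1052 (6.35%) at an unadjusted p under 0.05. Of the 16 genes, 6 were also called for eATP within glr3.3glr3.6, and both counts use the same 6 libraries. The count was 0 without number 2, 3 without number 1 and 59 without mock 1. It was 2 to 6 without eATP 1, eATP 2 or mock 2 of glr3.3glr3.6, or without any eATP library or mock 1 of p2k1p2k2.

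The widest difference upward was that of LOX3. In p2k1p2k2 it stood at 44.1, 17.8 and 15.3 FPKM after eATP and 86.3, 30.9 and 23.6 FPKM after mock, lower in each number, whereas it was higher in each number in glr3.3glr3.6. The difference of the responses was 1.70 ± 0.28 (limma adjusted p = 0.0307). AT3G02840 differed by 1.49 ± 0.20 (adjusted p = 0.0082), with 22.5, 8.76 and 9.25 FPKM after eATP and 26.9, 16.0 and 9.41 FPKM after mock in p2k1p2k2. GGP1 differed by 0.97 ± 0.13 (adjusted p = 0.0082), with 355, 179 and 175 FPKM after eATP and 476, 208 and 253 FPKM after mock in p2k1p2k2. GA2OX6 differed by 1.05 ± 0.14 (adjusted p = 0.0082), with 66.0, 49.9 and 52.8 FPKM after eATP and 92.0, 73.6 and 65.3 FPKM after mock there. For all 4 genes the response was upward in glr3.3glr3.6 and downward in p2k1p2k2 within every number. LOX3 averaged 33.4, 33.0 and 25.8 FPKM after eATP in glr3.3glr3.6, Col-0 and p2k1p2k2, and 16.8, 28.4 and 46.9 FPKM after mock. Its lines thus lay further apart after mock than after eATP. GGP1 differed in both, at 350, 286 and 236 FPKM after eATP and 225, 234 and 312 FPKM after mock.

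Among genes with a lower response in glr3.3glr3.6, KCS12, a fatty acid elongase, had 128, 91.3 and 111 FPKM after eATP and 145, 146 and 191 FPKM after mock. In p2k1p2k2 it had 127, 87.3 and 167 FPKM after eATP and 69.6, 62.5 and 133 FPKM after mock (difference -1.09 ± 0.18, limma adjusted p = 0.0307). AT5G44680 differed by -1.39 ± 0.23 (adjusted p = 0.0307) and stood at 22.1, 40.8 and 33.6 FPKM after eATP and 15.0, 33.2 and 19.1 FPKM after mock in p2k1p2k2. Both genes thus ran in opposite directions in the 2 mutants. Their mock levels also differed between the lines. KCS12 averaged 110, 104 and 127 FPKM after eATP in glr3.3glr3.6, Col-0 and p2k1p2k2, and 161, 96.1 and 88.4 FPKM after mock. In the same order AT5G44680 averaged 21.7, 23.0 and 32.1 FPKM after eATP and 40.5, 27.8 and 22.4 FPKM after mock. Whether the mock levels account for the differences of response was not tested.

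**Figure D4:**
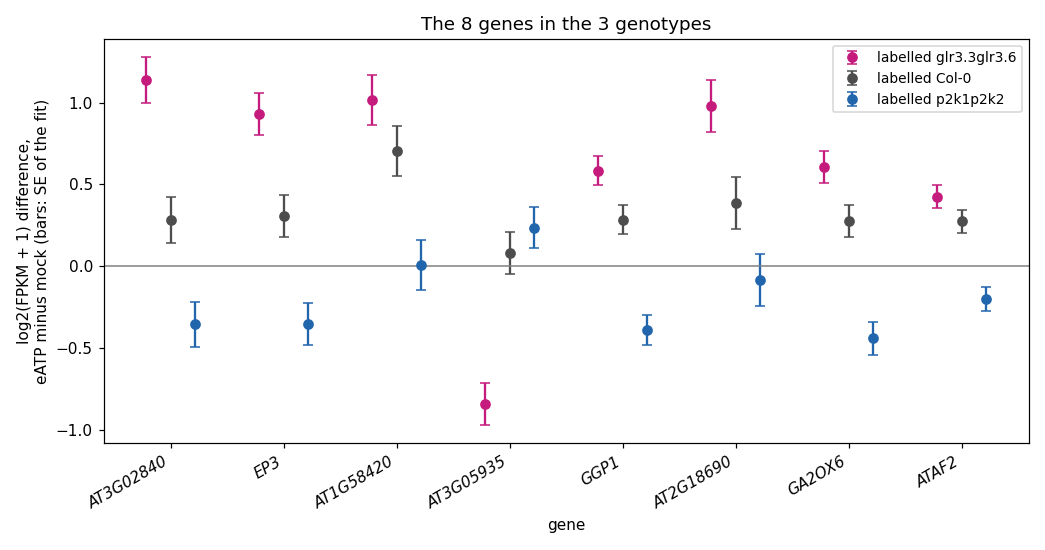
Log2 difference, eATP minus mock, with its SE for the 8 called genes in libraries labelled glr3.3glr3.6, Col-0 and p2k1p2k2. The 7 genes that rose in glr3.3glr3.6 lie between 0.27 and 0.71 in Col-0 and between -0.44 and 0.01 in p2k1p2k2.

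Jasmonate genes as a group lay on opposite sides of 0 in the 2 mutants. In p2k1p2k2, 12 of 13 synthesis genes, 10 of 11 JAZ genes and 6 of 6 catabolism genes stood lower after eATP than after mock, with medians of -0.54, -0.40 and -0.74. The synthesis median there was -0.59, -0.55 and -0.38 within numbers 1, 2 and 3. The difference between the mutants' responses had a median of 0.91 for synthesis, 0.74 for JAZ and 1.39 for catabolism genes, against -0.02 over all genes. At an unadjusted p under 0.05 upward were 8 of 13, 9 of 11 and 5 of 6 members, against 5.55% of all genes (5.72% ran downward), and LOX3 alone was called. Next to it were OPR3 (1.33 ± 0.25, adjusted p = 0.0615), JAZ5 (1.36 ± 0.26, 0.0644) and AOC1 (1.193 ± 0.23, 0.0658). OPR3 stood at 268, 108 and 83.4 FPKM after eATP and 448, 158 and 147 FPKM after mock in p2k1p2k2. Its averages in glr3.3glr3.6, Col-0 and p2k1p2k2 were 144, 167 and 153 FPKM after eATP and 92.0, 153 and 251 FPKM after mock.

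**Figure D5:**
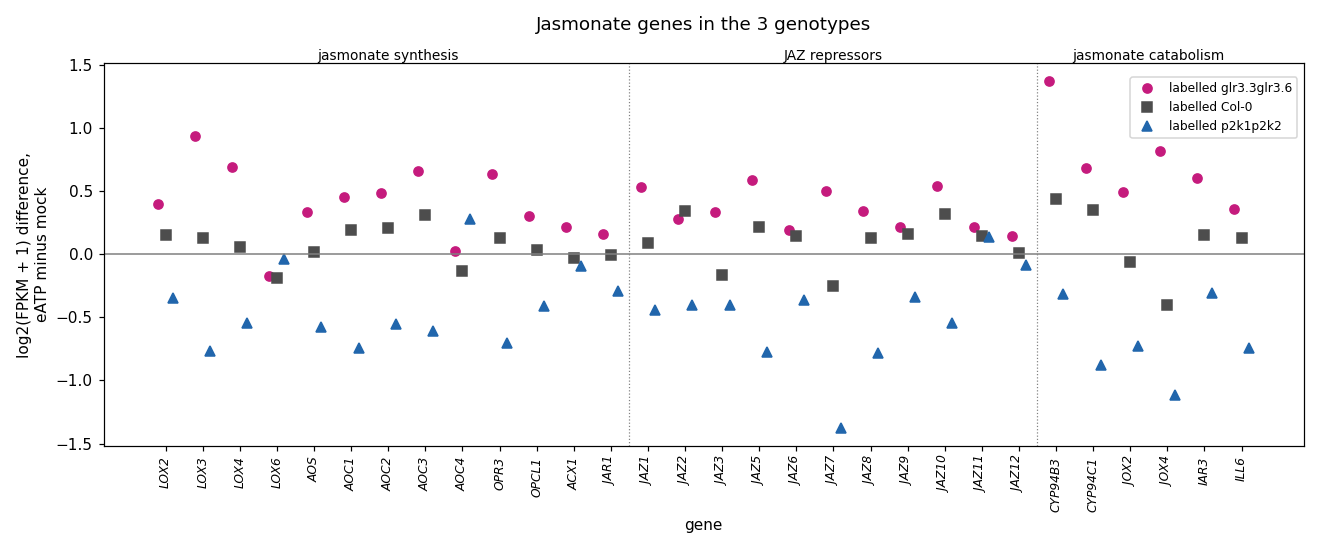
Log2 difference, eATP minus mock, of the 30 tested jasmonate synthesis, JAZ and catabolism genes in libraries labelled glr3.3glr3.6, Col-0 and p2k1p2k2. Most points of glr3.3glr3.6 lie above 0 (29 of 30) and most of p2k1p2k2 below it (28 of 30), with list medians in Col-0 of 0.06, 0.14 and 0.14.

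Against Col-0, no difference of the eATP response was called by limma (0 of 16577 genes, 0%, with 1044, 6.3%, at an unadjusted p under 0.05 and 294, 1.77%, without the block). Without eATP 1, number 1 or number 3 the count was 1, 3 and 4. Within Col-0 itself eATP also gave 0 calls, with 1376 genes (8.3%) at an unadjusted p under 0.05. Of the called genes, AT3G02840 stood at 0.28 in Col-0, a difference of 0.86 ± 0.20 (adjusted p = 0.656). AT3G05935 stood at 0.08 in Col-0, a difference of -0.93 ± 0.18 (adjusted p = 0.363). GA2OX6 stood at 0.28 in Col-0, a difference of 0.33 ± 0.14 (adjusted p = 0.777). A p that misses the threshold does not show that the responses of the 2 genotypes are alike.

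In Col-0 the list medians lay nearer 0 than in glr3.3glr3.6 for jasmonate synthesis (0.06), salicylate synthesis (-0.06), indole glucosinolates (0.07) and photosynthesis (0.01). For indole glucosinolate and camalexin genes the difference between the responses had an unadjusted p under 0.05 in 6 of 11 members (median difference 0.44, against 0.06 over all genes). For JAZ and catabolism genes 0 members reached that p against Col-0. The outputs of systemic acquired resistance had medians of 0.62 in Col-0 and 0.69 in p2k1p2k2. None of these differences was called for a single gene.

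L-Glu in the same line was compared with the same 3 mock libraries, so its values and those of eATP are not independent. It gave 1 call, GA2OX6 (0.00603% of genes; 0.71 on the log2 scale, limma adjusted p = 0.0400). The 7 genes that rose after eATP had log2 differences between 0.26 and 0.89 after L-Glu, from AT1G58420 at 0.26 to AT3G02840 at 0.89, and AT3G05935 stood at -0.59. The list medians after L-Glu were 0.65 for jasmonate synthesis, 0.38 for JAZ, 0.06 for salicylate synthesis and 0.33 for indole glucosinolate genes.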

How the data were processed

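FPKM values for 32824 genes in 27 libraries were deposited by the authors. The submitters' processing notes name HISAT2 2.2.1, Cufflinks 2.2.1, SAMtools 1.19, Cuffdiff 2.2.1, FastQC 0.11.9, Trim Galore 0.6.7 and the TAIR10 build, with no role or setting. Strand use and further scaling are not given in the sources used here. FPKM hold no counts, so absolute depth is unknown and no counting interval was computed. Of the gene IDs, 32539 matched the RefSeq table of TAIR10.1 and 285 did not. No coordinates or sequences are given.

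Values were analysed as log2(FPKM + 1) for 16577 genes, whose mean over the 27 libraries was 1 FPKM or more. That scale understates the change of low genes. A model with 9 group means and the replicate number as a block within each genotype was fitted across the 27 libraries (R 4.3.3, limma 3.58.1: lmFit, contrasts.fit and trended eBayes, with 12 residual and 3.75 prior degrees of freedom). Tests were two-sided, with Benjamini-Hochberg adjustment over all genes tested and a threshold of 0.05. The same fit gave the differences between genotypes' responses. The block follows the comparison as defined for the series. The deviations of eATP and mock libraries of the same number correlated at 0.353 (number 1), 0.36 (number 2) and 0.0762 (number 3), so the numbers are not shown to pair all 3. Since each library is a pool, a p reflects the spread of pools, and that of single plants was not measured. The code was tested on simulated data.

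The members and lists were chosen with earlier results of these data known. Of the listed symbols, 2 (HB2, FDH) belonged to another locus and were dropped. Named genes are the 4 targeted genes, every called gene, the 8 highest and 8 lowest uncalled genes (mean of at least 5 FPKM, no overlap, 3 pairs of the same sign), the 4 members of each list with the smallest p, and the 5 highest and 5 lowest called differences between responses. Other members were named after their values were seen. Alternatives were other blocks, libraries, pseudocounts, filters, scalings, library weights and leaving out libraries or, added after the data were seen, replicate numbers.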

Additional observations from a re-analysis of the deposited data

Results flagged for a closer look

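The eATP response of libraries labelled glr3.3glr3.6 differed from that of p2k1p2k2 in 16 genes, by limma's test of the difference itself at an adjusted p under 0.05. The log2 differences between the responses, glr3.3glr3.6 minus p2k1p2k2, were 0.97 for GGP1, 1.49 for AT3G02840, 1.05 for GA2OX6, 1.28 for EP3 and 0.63 for ATAF2, all of which rose within glr3.3glr3.6. LOX3 (1.70) and AT4G32800 (1.301) also responded more upward there. The differences ran downward for AT3G05935 (-1.08), KCS12 (-1.09), AT5G44680 (-1.39), AT3G23450 (-0.85) and the long non-coding RNA AT1G09907 (-2.74). AT1G09907 was listed at 0, 0 and 0.459 FPKM in eATP and at 3.28, 1.59 and 1.75 FPKM in mock of glr3.3glr3.6. In p2k1p2k2 it was at 2.45, 1.59 and 2.00 FPKM after eATP and at 0, 0.881 and 0 FPKM after mock. It overlaps WRI4, which averaged 41.1 FPKM in eATP and 45.2 FPKM in mock of glr3.3glr3.6. Reads of the overlapping genes cannot be told apart, so the low values of AT1G09907 are uncertain. ERF4 differed by 0.84. UCP5 (0.95), AT5G65300 (0.91) and NAC102 (0.80) were named after their values were seen. NAC102 overlaps SHA1, at 11.7 FPKM in eATP and 12.2 FPKM in mock of glr3.3glr3.6. None of these calls was made without the replicate block.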

How the results depend on the processing

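The 8 called genes kept their direction under every alternative run, whereas 10 of 159 named genes, none of them called, and 13 of 35 list medians, all between -0.10 and 0.16, took the other sign under at least 1. For eATP, 0 genes were called with no replicate block, with the 9 libraries of the line alone and with the 6 libraries alone. A block shared by all genotypes gave 3 calls, 2 of them among the 8. A minimum mean of 5 FPKM (11721 genes) gave 23 calls (7 of the 8 among them), a filter over the 6 libraries 17 (all 8), median-of-ratios scaling 5 (all among the 8) and library weights 69 (all 8). Leaving out libraries gave 0 to 232 calls, with 0 without eATP 2, mock 2 or number 2, 2 without eATP 1, 3 without number 1 (none of the 8), 54 without mock 3, 115 without number 3 and 232 without eATP 3. The 16 differences from p2k1p2k2 became 0 with no replicate block, 7 with the shared block, 4 with no filter and 263 with library weights, and 0 to 59 when libraries were left out. The 0 differences from Col-0 became 0 to 4 when libraries were left out. All 8 calls for eATP are lost without the replicate block, without number 1 and without number 2. The cause was not tested. Depth is unknown from FPKM, so no limit from counting can be given. The planned description of promoter motifs was not run.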
